A study of Homo sapiens with 4 samples.

Results

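Transcripts of 42 genes of homologous recombination and the Fanconi anaemia pathway were examined in K562 cells given clofarabine or its solvent. The genes were taken by name from the deposited table of 23615 genes, which lists all 42. Each had a mean of at least 10 fragments over the 4 libraries, so that none was untestable. The clofarabine group consisted of 2 samples of K562 cells kept for 3 h in medium with 5 µM clofarabine, dissolved in DMSO to a final 0.005% DMSO. The DMSO group consisted of 2 samples of the same line at 3 h with DMSO alone. K562 is an established human leukaemia line that carries the BCR-ABL1 fusion and lacks functional p53, and every sample shares that background. Clofarabine, a purine nucleoside drug, is turned in cells into a form that blocks ribonucleotide reductase and DNA synthesis.

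Homologous recombination mends DNA double-strand breaks and broken replication forks by copying the sister chromatid. Sensor and signalling proteins mark the break, nucleases resect its ends to single strands, BRCA1, PALB2 and BRCA2 prepare the resected strand to invade its partner, and helicases and nucleases then take the joined molecules apart. The Fanconi anaemia proteins unhook crosslinks between DNA strands and protect stalled forks: a core complex attaches ubiquitin to FANCD2 and FANCI, which brings in further nucleases and the recombination proteins. Several of these genes are transcribed most as cells enter S phase.

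The libraries, called C0 and C1 for clofarabine and V0 and V1 for DMSO, held between 8370550 and 23888755 estimated fragments each. The table gives the conditions only as the letters C and V, read here as clofarabine and vehicle; if that reading were wrong, all signs would turn round. Separate cultures are not stated for the samples of a group, and the p-values cover only the spread among the samples at hand, possibly a technical one. All 10 erythroid and K562 markers examined were present, with a summed level of 46756 to 55362 FPKM (fragments relative to transcript length and library total) in clofarabine and 48365 to 51989 FPKM in DMSO. Globin transcripts make up most of that sum, with HBE1 alone at 20951.1 to 25350.5 FPKM. GATA1 (137 and 150 against 174 and 169 FPKM), NFE2 (108 and 113 against 141 and 144 FPKM) and HBZ were lower in both clofarabine libraries. For the other markers the groups overlapped. On scaled counts 21.3% of all tested genes were lower in both clofarabine libraries. Of 14 markers of other cell types, EPCAM (45.4 to 48.4 FPKM) and CD3D (29.2 to 35.3 FPKM) were present in all libraries and the other 12 stayed at or under 0.432 FPKM, with CD8A, MS4A1 and KRT5 at 0. Summed, these 14 markers stood at 79.0 to 83.0 FPKM in clofarabine and 75.2 to 79.8 FPKM in DMSO.

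After 3 h of clofarabine, 3 of the 42 genes were higher than in DMSO and none was lower by edgeR's quasi-likelihood test at a Benjamini-Hochberg adjusted p under 0.05 over all 11761 genes tested. These were EXO1 and RBBP8, whose products resect DNA ends, and RMI1, a partner of the BLM helicase, each about 1.4 times its DMSO level (1.41, 1.44 and 1.42-fold). By the same rule 7.14% of the 42 genes and 1.54% of all tested genes were called higher, and 1.03% of all tested genes lower (2.57% in either direction). At an unadjusted p under 0.05, 9 of the 42 (21.4%) were higher, against 8.17% of all tested genes, and 1 was lower, against 6.06%. DESeq2 called 2 of the 42 as higher and limma-voom 3, and neither called any as lower. On the log2(FPKM + 1) scale EXO1 alone of the 42 was called, where 19 of all tested genes were called higher. Once a trend of each library on transcript length was removed, 5 of the 42 were called (the same 3, XRCC2 and BRCA1). Over all tested genes 271 were then called higher, so the counts among the 42 moved along with those over all genes. With library sizes alone as the scaling, 170 of all tested genes were called higher and 200 lower, in place of 181 and 121, and the same count of 3 was called higher among the 42.

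The changes were small across the 42 genes. Their log2 fold changes, clofarabine over DMSO, lay between −0.35 and 0.53 with a median of 0.078, where all tested genes had a median of 0.0020 and 5th and 95th percentiles of −0.40 and 0.38. A positive value was found for 26 of the 42 (61.9%, against 50.6% of all tested genes). In 15 of the 42 genes both clofarabine libraries were above both DMSO libraries (35.7%, against 22% of all tested genes), in 4 both were below (9.52%, against 21.3%), and in 23 the groups overlapped. Groups without overlap in either direction made up 19 of the 42 genes, against 43.2% of all tested genes. The median standard error of a log2 fold change among the 42 genes was 0.10. Changes well above that size could also go uncalled, as for FANCL at 0.37 (SE 0.11) and XRCC2 at 0.26 (SE 0.081). A gene that was not called may therefore still have changed by such amounts.

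**Figure D1:**
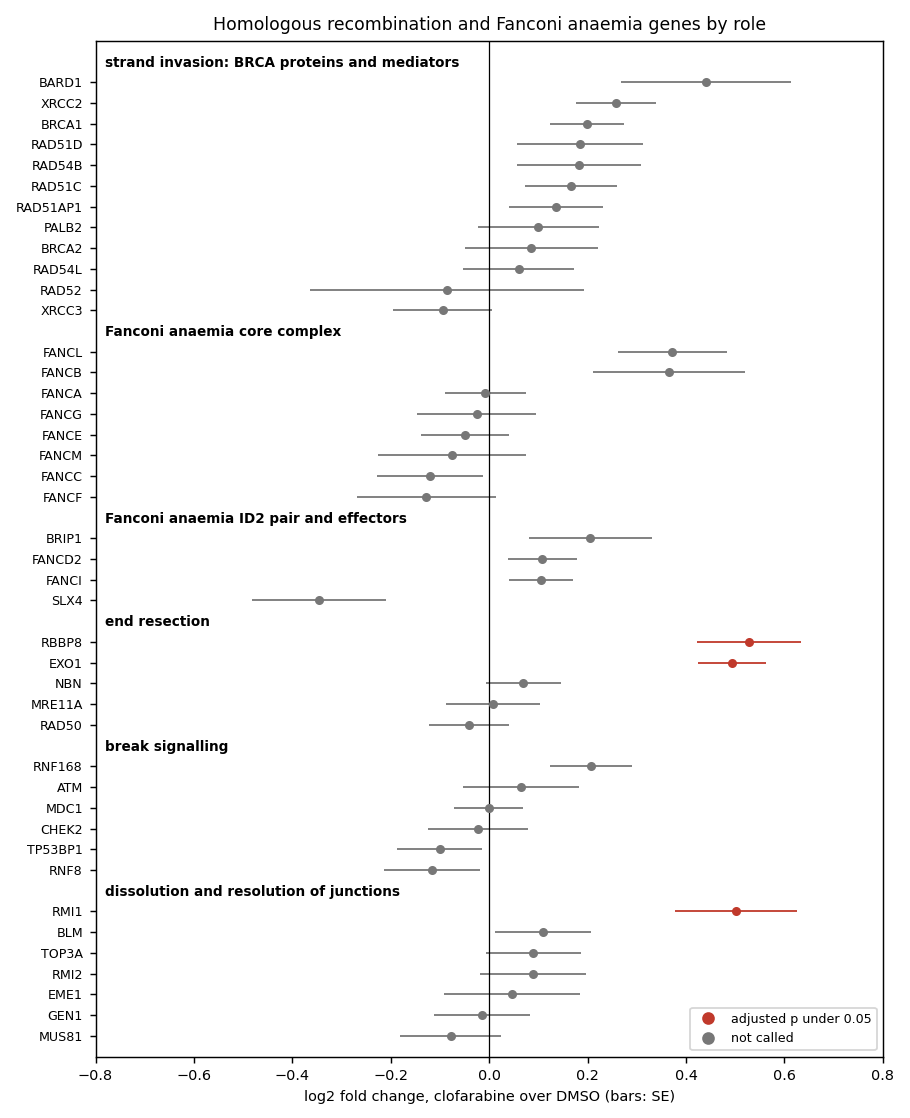
Log2 fold change of the 42 genes, clofarabine over DMSO (x axis), by role and in falling order within each role; points are edgeR estimates from 2 samples per group and bars are standard errors. EXO1, RBBP8 and RMI1 (red) lie between 0.49 and 0.53 and are the called genes, while most others lie within 0.2 of 0.

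Levels per transcript length differed far more between the genes than between the treatments. On the authors' FPKM scale the highest was RAD51C, a subunit of complexes that promote strand invasion, at 83.2 ± 14.6 FPKM in clofarabine and 72.4 ± 1.61 FPKM in DMSO (mean ± SD, n = 2 each). Next came EXO1 at 52.6 ± 0.319 FPKM in clofarabine and 37.6 ± 2.2 FPKM in DMSO, and FANCI at 47.4 ± 1.92 FPKM in clofarabine and 44.0 ± 0.580 FPKM in DMSO. In clofarabine EXO1 stood above FANCI in both libraries and in DMSO below it in both. The lowest 5 genes, RAD52, BRCA2, FANCM, ATM and SLX4, had group means between 1.78 and 3.01 FPKM, and within clofarabine the ranges of RAD52, BRCA2, FANCM and ATM overlapped, so that their order there is not resolved. Among all tested genes ranked by FPKM, RAD51C stood at the 88.7th percentile and RAD52 at the 18.5th.

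**Figure D2:**
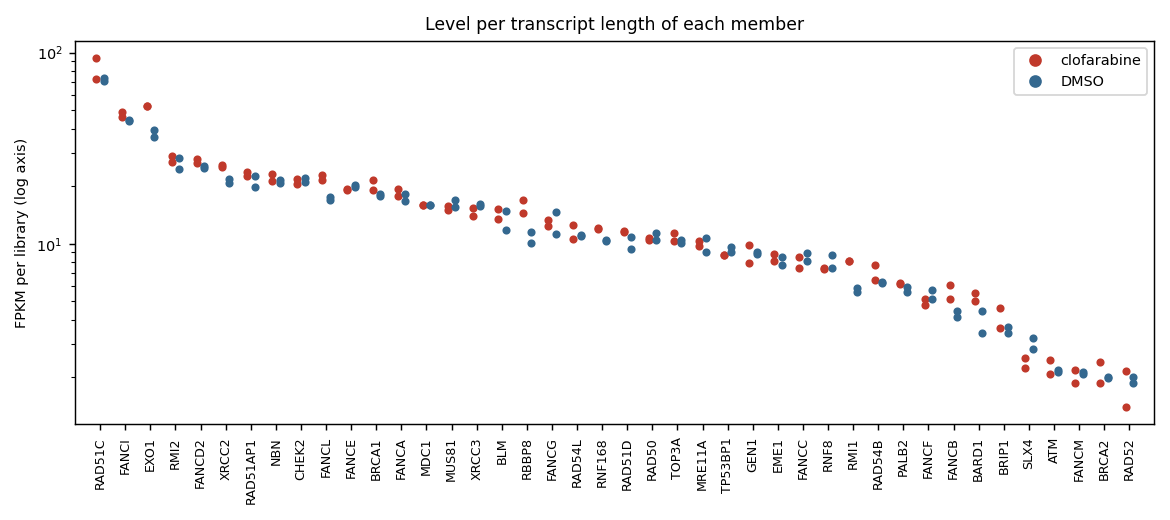
FPKM of each gene in each library on a log axis, genes ordered by their mean; red points are the clofarabine libraries and blue points the DMSO libraries. Levels run from about 2 FPKM for RAD52 and BRCA2 to over 70 FPKM for RAD51C, and the colours separate clearly for EXO1, RBBP8 and RMI1.

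Among the 5 genes of end resection, 2 were higher in clofarabine (40%, against 1.54% of all tested genes), none was lower and 3 were not called. The role holds few genes, the share depends on which genes are assigned to it, and it was not tested. EXO1 encodes a 5′ to 3′ exonuclease that carries out long-range resection and also serves mismatch repair. Its level was 167.9 CPM (fragments relative to the scaled library total) in C1 and 168 CPM in C0, against 124 CPM in V0 and 115 CPM in V1. The clofarabine libraries differed by less than 1 CPM and both lay above both DMSO libraries. The log2 fold change was 0.49 (SE 0.070, edgeR adjusted p = 0.000145), and it was called with each library left out in turn, at values between 0.43 and 0.55.

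RBBP8 encodes CtIP, which starts resection together with the MRE11 nuclease. It had 52.98 and 45.1 CPM in C0 and C1, against 31.4 and 36.0 CPM in V0 and V1, with no overlap between the groups. Its log2 fold change of 0.53 was the highest of the 42 (SE 0.11, edgeR adjusted p = 0.00626). The estimate moved between 0.42 without C0 and 0.64 without C1 and was called in each case. It was not called on the log2(FPKM + 1) scale (limma adjusted p = 0.143) or with libraries thinned to equal depth (edgeR adjusted p = 0.0583).

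The complex of MRE11A, RAD50 and NBN, which binds broken ends and holds the nuclease that CtIP activates, had levels that overlapped between the groups in all 3 of its genes. RAD50, the ATPase that tethers the ends, had 68.4 and 70.6 CPM in clofarabine and 74.8 and 68.7 CPM in DMSO (log2 fold change −0.041, SE 0.081). NBN, which recruits the ATM kinase, had 105 and 96.8 CPM in clofarabine and 94.2 and 97.9 CPM in DMSO (log2 fold change 0.069, SE 0.076). MRE11A, the nuclease, had a log2 fold change of 0.0079 (SE 0.095), and its 2 DMSO libraries, at 46.0 and 54.5 CPM, enclosed both clofarabine libraries. A difference of the size seen for RBBP8 lay several standard errors away from each of these 3 estimates.

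**Figure D3:**
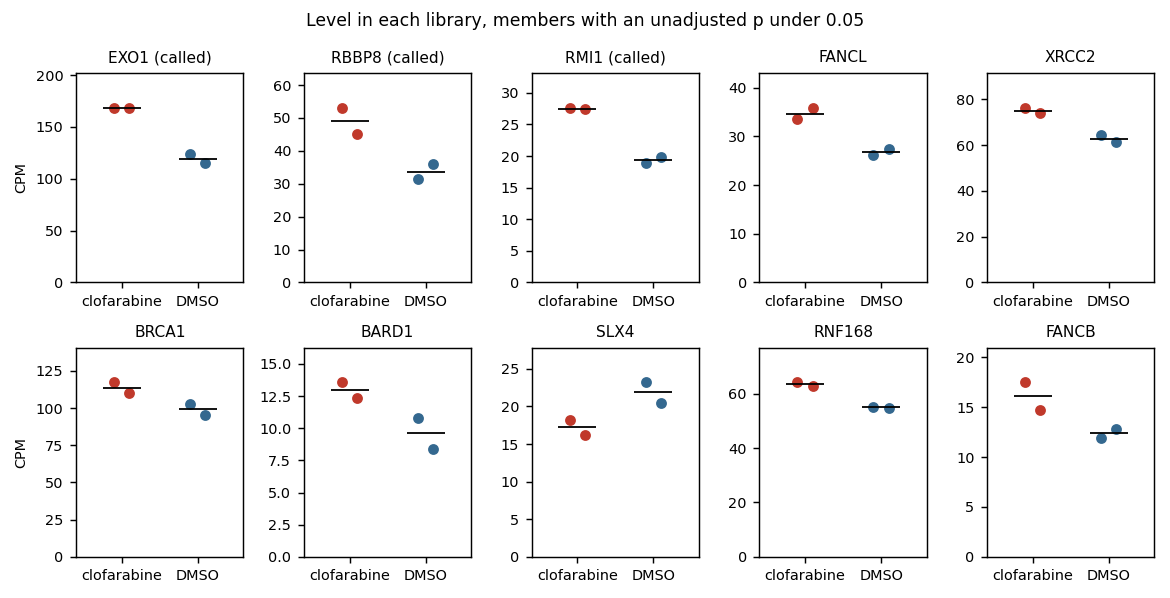
CPM in each library for the 10 genes with an unadjusted p under 0.05, in order of p; red points are C0 and C1, blue points V0 and V1, and black lines group means. In all 10 the libraries of the groups do not overlap, as in 43.2% of all tested genes, and SLX4 is the gene that is lower in clofarabine. The 10 were picked by p from these same libraries, so the lack of overlap is no separate result.

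Taking joined DNA molecules apart depends on 2 routes, dissolution by BLM with TOP3A, RMI1 and RMI2, and cutting by MUS81 with EME1 or by GEN1. Of these 7 genes RMI1 was higher (14.3%, against 1.54% of all tested genes) and the other 6 were not called. RMI1, which holds BLM and the topoisomerase TOP3A together, had 27.6 and 27.4 CPM in clofarabine, against 18.8 and 19.9 CPM in DMSO. The clofarabine libraries were nearly equal and stood above both DMSO libraries. Its log2 fold change was 0.50 (SE 0.12, edgeR adjusted p = 0.0298). The estimate stayed between 0.47 and 0.54 with any library left out, but it was not called without V0 (edgeR adjusted p = 0.112) or V1 (edgeR adjusted p = 0.128), nor by DESeq2 (adjusted p = 0.126) or on the log2(FPKM + 1) scale (limma adjusted p = 0.161).

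The partners of RMI1 showed smaller differences. BLM, the helicase, had 67.1 and 60.2 CPM in clofarabine and 65.7 and 52.5 CPM in DMSO, with overlapping groups (log2 fold change 0.11, SE 0.098). TOP3A and RMI2, the other subunits, had log2 fold changes of 0.090 (SE 0.096) and 0.089 (SE 0.11). MUS81, the catalytic subunit of a junction nuclease, had 35.6 and 33.7 CPM in clofarabine and 38.0 and 35.2 CPM in DMSO (log2 fold change −0.078, SE 0.10). Its partner EME1 (0.046, SE 0.14) and the resolvase GEN1 (−0.014, SE 0.098) were likewise close to 0 on the log2 scale, with overlapping groups.

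The promoters of the called genes are shown because these 3 genes were each called higher. RefSeq windows (GRCh38.p14, 250 bases before to 50 after each annotated start) were found for 38 of the 42 genes. The windows were searched on both strands for the E2F motifs TTTGGCGC and TTTCCCGC, the NF-Y box CCAAT and the cell cycle homology element TTTGAA. The last 150 bases before the first listed start of EXO1 (chr1:241848054-241848203, plus strand), RBBP8 (chr18:22933178-22933327, plus strand) and RMI1 (chr9:83980209-83980358, plus strand) follow, with 68 bases around the start of FANCD2 (chr3:10026377-10026444, plus strand), which holds an E2F motif. Capitals mark a motif, which reads as its reverse complement where it lies on the other strand.
EXO1: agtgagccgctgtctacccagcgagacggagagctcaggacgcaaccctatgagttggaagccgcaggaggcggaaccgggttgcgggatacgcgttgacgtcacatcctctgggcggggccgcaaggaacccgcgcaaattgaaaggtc
RBBP8: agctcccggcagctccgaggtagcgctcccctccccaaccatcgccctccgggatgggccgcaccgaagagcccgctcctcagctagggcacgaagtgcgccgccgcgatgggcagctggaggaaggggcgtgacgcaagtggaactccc
RMI1: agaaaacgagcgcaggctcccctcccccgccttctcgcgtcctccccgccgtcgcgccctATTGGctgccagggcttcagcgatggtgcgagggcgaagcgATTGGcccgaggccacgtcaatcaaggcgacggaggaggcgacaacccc
FANCD2: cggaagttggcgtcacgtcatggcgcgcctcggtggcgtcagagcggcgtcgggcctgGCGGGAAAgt

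An E2F motif as searched was present for 3 of the 38 genes (7.89%, against 2.75% of 27305 genes with a window), namely XRCC2, FANCC and FANCD2. None of these was called, and no window of EXO1, RBBP8 or RMI1 held those letters. A CCAAT box was present for 19 of the 38 (50%, against 39.7% of all genes), among them RMI1 with 2 boxes. The TTTGAA element was present for 4 (10.5%, against 18.2%), namely FANCC, BRIP1, ATM and MDC1. A match or its absence describes the letters of these windows only.

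In break signalling, 6 of 6 genes were not called, as were 11459 of all 11761 tested genes, and the median log2 fold change was −0.012. ATM, the kinase that starts the response to double-strand breaks, had 32.7 and 27.7 CPM in clofarabine and 29.1 and 28.4 CPM in DMSO. The clofarabine libraries enclosed both DMSO libraries (log2 fold change 0.065, SE 0.12). CHEK2, a kinase that ATM activates, had 34.8 and 37.2 CPM in clofarabine and 35.3 and 37.9 CPM in DMSO (log2 fold change −0.023, SE 0.10). MDC1, the scaffold that binds phosphorylated H2A.X, was level across libraries at 117 and 118 CPM in clofarabine and 117 and 118 CPM in DMSO (log2 fold change −0.0010, SE 0.071).

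Downstream of MDC1 act the ubiquitin ligases RNF8 and RNF168 and then TP53BP1. RNF168 had 64.1 and 62.8 CPM in clofarabine, against 55.0 and 54.9 CPM in DMSO. The groups did not overlap, and the log2 fold change of 0.21 (SE 0.083) had an unadjusted p of 0.021 and an edgeR adjusted p of 0.242. TP53BP1, which restrains resection in favour of end joining, had 54.3 and 53.7 CPM in clofarabine and 55.8 and 59.8 CPM in DMSO (log2 fold change −0.10, SE 0.086). RNF8 had a log2 fold change of −0.12 (SE 0.098) with overlapping groups.

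The 12 genes that lead to strand invasion, BRCA1 and its partners and the mediators of invasion, had no call and a median log2 fold change of 0.15. A positive value was found for 10 of the 12 (83.3%, against 50.6% of all tested genes). In 7 of the 12 both clofarabine libraries were above both DMSO libraries (58.3%, against 22% of all tested genes), and in 1, XRCC3, both were below (8.33%, against 21.3%). BRCA1, a ubiquitin ligase that promotes resection and strand invasion, had 117 and 110.2 CPM in clofarabine, against 103 and 95.6 CPM in DMSO. The lower clofarabine library exceeded the higher DMSO library by little more than the gap between the libraries within either group (log2 fold change 0.20, SE 0.075, edgeR adjusted p = 0.207). With the trend on transcript length removed it was called (log2 fold change 0.22, edgeR adjusted p = 0.0484).

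BARD1, the obligate partner of BRCA1, had 13.6 and 12.4 CPM in clofarabine, against 10.8 and 8.39 CPM in DMSO. The log2 fold change of 0.44 was among the higher of the 42, but so was its error (SE 0.17, edgeR adjusted p = 0.226), and it ranged from 0.25 without V1 to 0.62 without V0. PALB2, which bridges BRCA1 and BRCA2, had 24.5 and 24.3 CPM in clofarabine and 23.6 and 22.03 CPM in DMSO, the groups not overlapping (log2 fold change 0.10, SE 0.12). BRCA2, which prepares single-stranded DNA for invasion, had 27.5 and 21.6 CPM in clofarabine, on either side of the 23.1 and 22.7 CPM in DMSO (log2 fold change 0.086, SE 0.14). Of these 4 genes BRCA1 and BARD1 had an unadjusted p under 0.05 (0.0152 and 0.0184), and none was called.

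Among XRCC2, XRCC3, RAD51C and RAD51D, related proteins that assist strand invasion, XRCC2 stood farthest from 0 on the log2 scale. It had 76.2 and 74.1 CPM in clofarabine, against 64.3 and 61.5 CPM in DMSO. All clofarabine values were above all DMSO values, and the log2 fold change was 0.26 (SE 0.081, edgeR adjusted p = 0.106). It was called with the trend on transcript length removed (edgeR adjusted p = 0.0375). RAD51D (0.19, SE 0.13) and RAD51C (0.17, SE 0.094) had smaller positive log2 fold changes. RAD51C had 56.8 CPM in C0 and 68.9 CPM in C1, so its positive value rested on C1, and without C1 it was 0.0086. Its transcripts are short, at the 5.95th percentile of implied length, in the class of shortest transcripts, where 6.63% of tested genes were called higher. XRCC3, the partner of RAD51C in another complex, had a log2 fold change of −0.095 (SE 0.10).

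The motor proteins and annealing factors of the pathway were not called. RAD51AP1, which stimulates strand invasion, had a log2 fold change of 0.14 (SE 0.095), RAD54B and RAD54L, related DNA translocases, had ones of 0.18 (SE 0.13) and 0.060 (SE 0.11). RAD52, an annealing factor, was the lowest of the 42 genes with a mean of 67.8 fragments per library. It had 3.54 and 5.49 CPM in clofarabine, on either side of the 4.71 and 5.08 CPM in DMSO (log2 fold change −0.086, SE 0.28). With that error neither a rise like that of EXO1 nor a fall of the same size was detectable at this depth.

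In the Fanconi anaemia core complex, 8 of 8 genes were not called, as were 11459 of all 11761 tested genes. FANCL and FANCB had a positive log2 fold change (25%, against 50.6% of all tested genes) and the other 6 a negative one. FANCL, the ubiquitin ligase subunit, had 33.5 and 35.8 CPM in clofarabine, against 26.3 and 27.4 CPM in DMSO, with no overlap. Its log2 fold change of 0.37 (SE 0.11) had an edgeR adjusted p of 0.0825, and it was called without C0 (adjusted p = 0.0405) but not without any other library. FANCB, which forms a subcomplex with FANCL, had 17.5 and 14.8 CPM in clofarabine, against 11.9 and 12.8 CPM in DMSO (log2 fold change 0.37, SE 0.15, edgeR adjusted p = 0.273). The same direction in both genes was noticed after their values were seen.

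FANCA, a core subunit often mutated in Fanconi anaemia, had 76.0 and 68.9 CPM in clofarabine and 73.0 and 72.3 CPM in DMSO. The clofarabine libraries enclosed the DMSO libraries, and the log2 fold change was −0.0076 (SE 0.082). FANCG (−0.025), FANCE (−0.049), FANCM (−0.076), FANCC (−0.12) and FANCF (−0.13) had log2 fold changes with standard errors between 0.089 and 0.15. FANCE was the core subunit in which both clofarabine libraries, at 46.9 and 46.4 CPM, lay below both DMSO libraries, at 48.6 and 47.9 CPM.

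FANCD2 and FANCI, the pair to which ubiquitin is attached, had near-equal log2 fold changes of 0.11 (SE 0.070) and 0.10 (SE 0.066). FANCD2 had 139.6 and 133 CPM in clofarabine, against 125 and 128 CPM in DMSO. FANCI had 214 and 227 CPM in clofarabine, against 206 and 204 CPM in DMSO. In both genes the groups did not overlap, and neither was called (edgeR adjusted p = 0.547 and 0.523). BRIP1, the FANCJ helicase that binds BRCA1, had 37.7 CPM in C0 and 29.5 CPM in C1, and 30.0 and 27.8 CPM in DMSO. Its log2 fold change of 0.21 (SE 0.12) was 0.033 without C0 and 0.38 without C1.

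SLX4, a scaffold for crosslink and junction nucleases, was the member of the pathway farthest below 0. It had 18.2 and 16.2 CPM in clofarabine, against 23.2 and 20.5 CPM in DMSO. Both clofarabine libraries were lower than both DMSO libraries, and the log2 fold change was −0.35 (SE 0.14, unadjusted p = 0.0192, edgeR adjusted p = 0.231). With any library left out it stayed between −0.44 and −0.26 and was not called.

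**Figure D4:**
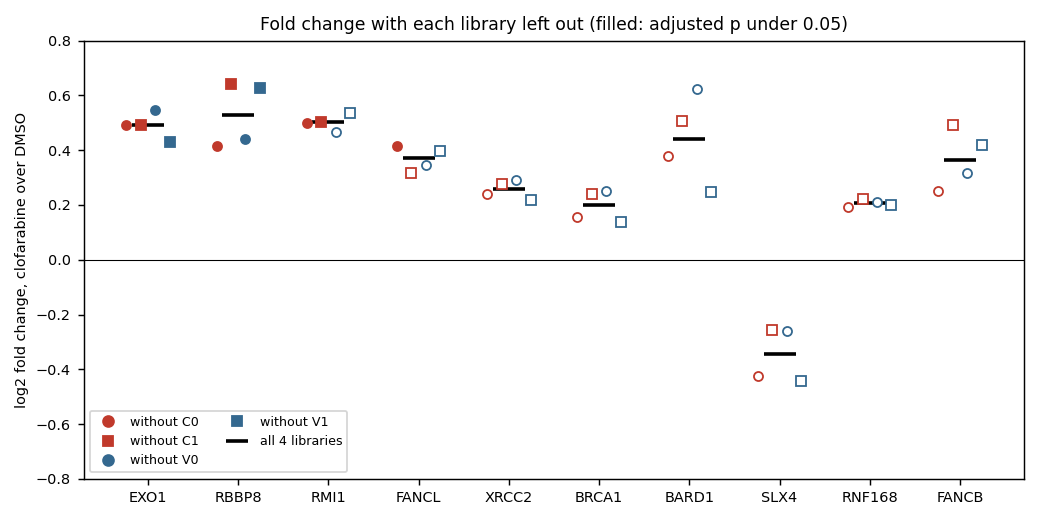
Log2 fold change, clofarabine over DMSO, of the 10 genes with an unadjusted p under 0.05 with all 4 libraries (black bars) and with each library left out (circles and squares; filled where the adjusted p is under 0.05). EXO1 and RBBP8 stay called in all 4 cases, RMI1 is not called without V0 or V1, FANCL is called without C0, and no gene changes sign.

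The 2 clofarabine libraries differed in a way that followed transcript length. Across the 42 genes the log2 ratio of C1 over C0 had a Spearman correlation of −0.45 with the transcript length implied by the authors' values, and −0.30 across 11746 tested genes with a length, given as a description of these 2 libraries. C0 was above C1 in 26 of the 42 genes, among them the long transcripts of BRCA2, ATM and BRIP1, and C1 was above C0 in 16, among them RAD51C. Of the called genes, EXO1 stood at the 58.9th percentile of length, RBBP8 at the 57.9th and RMI1 at the 62.0th. With the trend removed their log2 fold changes were 0.50, 0.53 and 0.51, all called. The trend was fitted to these same libraries, and whether it had a part in the calls was not tested.

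Exons of 17 of the 42 genes overlap those of another gene of the table in the GENCODE 29 annotation, mostly on the opposite strand, and how strand was treated in counting is unstated in the sources used here. RBBP8 overlaps MIR4741, which had no fragments, and EXO1 and RMI1 overlap none. FANCL overlaps VRK2, ATM overlaps NPAT, GEN1 overlaps SMC6, EME1 overlaps LRRC59, MUS81 overlaps CFL1, XRCC3 overlaps KLC1 and RAD54L overlaps LRRC41, and each of these neighbours had more fragments than its partner, so that their values may hold shared fragments. RAD51D and RAD54B had fractional fragment estimates and share exons with RAD51L3-RFFL and FSBP on the same strand, so that their values are uncertain in that respect.

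Further genes of the same pathway, 53 in the table of which 51 were tested, had 2 higher, none lower and 49 not called, with a median log2 fold change of 0.061. Those called higher made up 3.92% of the 51, against 1.54% of all tested genes. At an unadjusted p under 0.05, 11 of the 51 (21.6%) were higher, against 8.17% of all tested genes, and 3 were lower, against 6.06%. DESeq2 called none. SHFM1, which encodes the BRCA2-binding protein DSS1, had 94.7 and 123 CPM in clofarabine, against 88.3 and 69.8 CPM in DMSO, a log2 fold change of 0.48 (SE 0.11) at an edgeR adjusted p of 0.0167. Its value fell to 0.27 without C1 (adjusted p = 0.105) and 0.30 without V1 (adjusted p = 0.302). PSMC3IP, a factor known for strand pairing in meiosis, had 54.5 and 55.7 CPM in clofarabine, against 44.9 and 41.7 CPM in DMSO (log2 fold change 0.35, SE 0.090, edgeR adjusted p = 0.0361). Its call was lost when C1, V0 or V1 was left out, at adjusted p-values of 0.0817, 0.0512 and 0.500. With the trend on transcript length removed SHFM1 had 0.28 (adjusted p = 0.0259).

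Other gene lists give a scale for these counts. Of 51 tested genes of excision, mismatch and end-joining repair, 4 were higher and none lower, with a median log2 fold change of 0.021. Those called higher made up 7.84% of that list, against 7.14% of the 42 genes and 1.54% of all tested genes. These were MSH6, a mismatch recognition subunit (0.43), MBD4 (0.39) and UNG (0.36), which are DNA glycosylases, and FEN1, the flap nuclease (0.26). Without V1 fewer of that list were called higher, and so were fewer of all tested genes. Of 37 tested genes of the G1/S transition, 18 were higher (48.6%, against 1.54% of all tested genes), with a median log2 fold change of 0.28. The 4 with the smallest p-values were CCNE2 (1.19), DTL (0.67), CDC6 (0.62) and RRM2 (0.40). That list shares UNG with the repair list. It too had fewer calls without V1, as had all tested genes. Of 32 tested genes of G2 and mitosis, 19 were lower, against 1.03% of all tested genes, with a median log2 fold change of −0.35. The 4 with the smallest p-values were KIF20A (−1.38), AURKA (−0.90), CENPA (−1.45) and PLK1 (−0.77). The difference between the lists was not tested. Their medians place the recombination and Fanconi anaemia genes between those of G1/S and those of G2 and mitosis, nearer to the median of all tested genes.

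**Figure D5:**
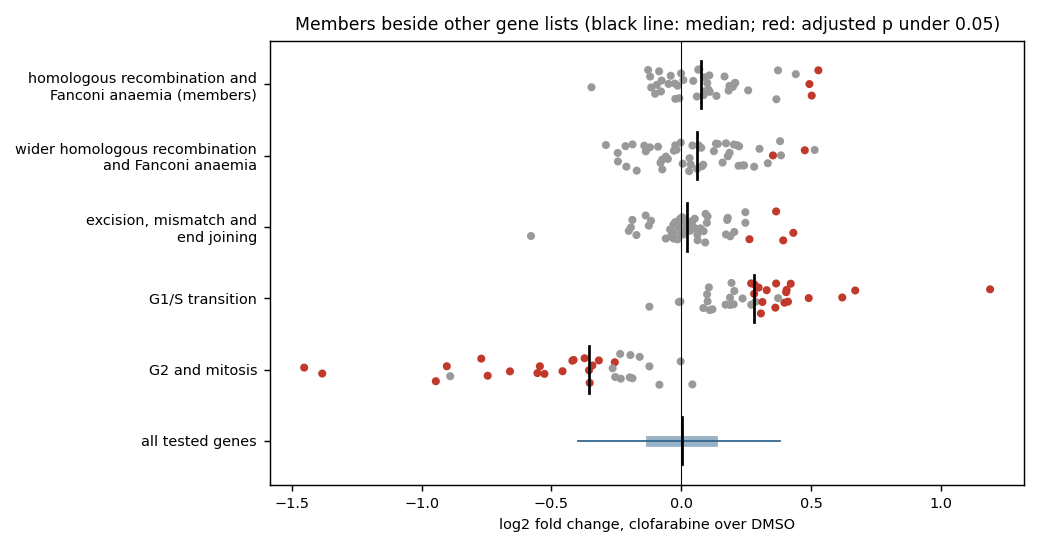
Log2 fold change, clofarabine over DMSO (x axis), of each tested gene in 5 lists, with medians as black lines and called genes in red; for all tested genes the thick bar spans the 25th to 75th and the thin line the 5th to 95th percentiles. The median of the 42 genes is 0.078, that of G1/S genes 0.28 and that of G2 and mitosis genes −0.35.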

How the data were processed

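The submitters' processing notes name the build hg19 and the programs Cuffdiff 2.2.1, TopHat2 2.0.13 and cutadapt 1.5, but no gene annotation. Per the labels' protocols, total RNA was made into directional libraries. For every gene and library the deposited table gives an estimated count of fragments, a scaled signal (those counts times 1 factor per library, per the file headers) and the authors' FPKM values. Estimated counts were rounded, genes were kept by filterByExpr (minimum count 10), scaled by TMM and compared by edgeR 4.0.16's quasi-likelihood test (R 4.3.3), the model holding group alone. Standard errors are the log2 fold change over the square root of F. CPM uses the TMM-adjusted library size. DESeq2 1.42.0 and limma 3.58.1 were alternatives; FPKM was tested with limma on log2(FPKM + 1) and log2(FPKM + 0.1). Transcript length was implied by the ratio of the scaled signal to FPKM, and the trend on it was a loess fit (span 0.3). The edgeR script was checked on simulated data. Libraries of a group differed beyond sampling noise (chi-square per degree of freedom 6.97 for clofarabine and 2.78 for DMSO), so none were combined. The range of library depths is in the report.

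The genes, the lists and the naming rule were chosen with earlier results of these data known. By that rule all called genes, those with an unadjusted p under 0.05 and 16 central genes are given with every library's value, and from the other lists up to 4 called genes per direction. No gene of the 42 has a failed status. MRE11A was found under its current symbol MRE11 in RefSeq.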

Additional observations from a re-analysis of the deposited data

How the results depend on the processing

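Each gene was refitted under 17 alternatives. EXO1, RBBP8 and RMI1 alone had a call to lose, and the lost calls counted here are those of RBBP8 and RMI1. Most values are of the 39 genes not called. Of 714 such values for the 42 genes, 672 kept their direction and side of the threshold, 8 lost a call, 5 gained a call and 29 changed sign. The number of the 42 called higher was 1 with limma on log2(FPKM + 1), 1 on log2(FPKM + 0.1), 5 with the trend on transcript length removed, and between 2 and 4 with each library left out, and the number called lower was 0 in every alternative run. Over all tested genes 302 were called, against 478 with no filter, 168 with DESeq2, 56 on log2(FPKM + 1), 72 on log2(FPKM + 0.1), 488 with the length trend removed, 128 at a threshold of 0.01, 466 at 0.1, and between 130 (without V1) and 636 (without C0) with a library left out. A sample left alone in its group was taken to vary as the remaining group does.

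The main model did not pair the replicate numbers of the table across groups. The deviations of libraries with the same number had a correlation of −0.0038. The difference between C0 and C1 also followed transcript length, so this value cannot settle whether the libraries were paired. With the replicate block, 5 of the 42 genes and 796 of all tested genes were called.

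Signs changed only in genes that were not called. With a library left out the log2 fold changes ranged from −0.058 to 0.27 for BLM, −0.013 to 0.18 for RMI2, −0.084 to 0.26 for BRCA2, −0.049 to 0.19 for ATM, −0.085 to 0.17 for RAD54L, −0.18 to 0.044 for FANCM, −0.11 to 0.020 for RAD50, −0.035 to 0.12 for EME1, −0.47 to 0.16 for RAD52, −0.079 to 0.024 for CHEK2, −0.20 to 0.19 for FANCG, −0.17 to 0.14 for GEN1, −0.074 to 0.062 for FANCA, −0.10 to 0.13 for MRE11A and −0.0066 to 0.0022 for MDC1. At equal depth CHEK2 had 0.011 and FANCG 0.088. With the length trend removed GEN1 had 0.0070, FANCA 0.0055 and MDC1 0.025. On log2(FPKM + 1) FANCA had 0.081 and on log2(FPKM + 0.1) 0.085. With library sizes alone MRE11A had −0.027. The cause of these changes was not tested.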
